A study of Mus musculus with 30 samples.

Results

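Protease-activated receptors, tissue factor and the plasminogen activators connect proteases outside the cell to signalling inside it. The members described here are 7 of the 21689 genes named on the arrays. They were chosen by their gene names, from a list of F2r, F2rl1, F2rl2, F3, Plau, Plaur and Plat, and 12 probes carry these names. The list was drawn up knowing that F2rl1 was among the largest rises after 8 h of NaCl. The 8 h values of wild type cells are therefore given as a description, with no test.

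The receptors F2r, F2rl1 and F2rl2 encode the receptors known as PAR1, PAR2 and PAR3. These G protein-coupled receptors are switched on when a protease cuts their outer end and exposes a tethered ligand. Thrombin cuts PAR1 and PAR3, while trypsin-like proteases and the complex of tissue factor with coagulation factors cut PAR2. F3 encodes tissue factor, the membrane protein that starts the coagulation cascade. Plau and Plat encode urokinase and tissue-type plasminogen activator, which turn plasminogen into plasmin, and Plaur encodes the receptor that holds urokinase at the cell surface. In fibroblasts these proteins are known for roles in wound repair and turnover of the matrix.

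RNA of immortalized mouse embryonic fibroblasts (MEFs), wild type or p38α-/-, was measured on 30 two-colour Agilent arrays, 2 for each of 15 groups. On each array the Cy5 channel held the sample and the Cy3 channel held one pool of untreated wild type MEFs, so a positive log2 ratio is a level above that pool. Wild type MEFs received, for 45 min, either the translation inhibitor anisomycin at 25 ng/ml or TNFα, an inflammatory cytokine, at 100 ng/ml. Others were put under osmotic stress with 100 mM NaCl for 45 min, 2 h or 8 h. A further 6 wild type groups received the p38 inhibitor SB203580, alone or before each of these stresses. The protocol gives 10 µM for 30 min before the stress, while the sample titles give 10 mM and 2 h. The p38α-/- MEFs, which lack the p38α kinase encoded by Mapk14, were left without stress or given the same doses of anisomycin, of TNFα or, for 2 h, of NaCl. No age or strain of the embryos is given in the labels.

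On Cy5, 81.0% to 96.7% of probes were well above background and on Cy3 92.6% to 98.9%. Agilent Feature Extraction marked a spot as an outlier for 6.75% to 44.7% of probes per array, and these spots were left out. The Mapk14 probe read −2.24 to −0.94 on the 6 p38α-/- arrays that measured it and 0.05 to 1.31 on 16 of 22 wild type arrays. All 9 fibroblast markers were well above background in both channels on all 30 arrays, and so were all 5 leukocyte markers and both epithelial markers on the arrays. Of 5 endothelial markers, 4 were well above background in Cy5 on all arrays and Cdh5 on 28, and Gp9, one of 3 megakaryocyte markers, on 5. This mark therefore did not separate cell types here. Dyes were never swapped, so a dye effect of a probe and a difference from the pool cannot be told apart. The pool also counts as 1 control sample whose own spread is not included. In bulk RNA, fewer cells that express a gene and less RNA per cell cannot be told apart.

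Upstream sequence is shown for F2r, which lay furthest above the pool after 8 h of NaCl. It is also shown for its neighbour F2rl2, which lay below the pool there. The third gene is F3, which had the largest tested rise of any member after 2 h of NaCl. In RefSeq (GRCm38.p6) the 3 receptor genes lie together on chromosome 13, in the order F2rl1, F2r and F2rl2. A lncRNA gene lies between F2rl1 and F2r, and Iqgap2 with 3 lncRNA genes lies between F2r and F2rl2. The RefSeq table holds windows for 4 of the 7 members, F2r, F2rl2, F3 and Plaur, and none for F2rl1. Each window runs from 250 bases before the start site to 50 bases after it and was searched whole. The 250 bases before the start site are printed 5′ to 3′ on the strand of the gene, and capitals mark TGANTCA, the AP-1 motif, whose reverse complement is itself. The lines are F2r at chr13:95618467-95618716, minus strand, F2rl2 at chr13:95696670-95696919, plus strand, and F3 at chr3:121723287-121723536, plus strand.
F2r: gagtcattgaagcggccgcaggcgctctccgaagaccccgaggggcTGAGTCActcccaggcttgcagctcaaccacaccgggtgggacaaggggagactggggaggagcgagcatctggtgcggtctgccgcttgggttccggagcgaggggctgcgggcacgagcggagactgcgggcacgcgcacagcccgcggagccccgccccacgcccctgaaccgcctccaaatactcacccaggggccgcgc
F2rl2: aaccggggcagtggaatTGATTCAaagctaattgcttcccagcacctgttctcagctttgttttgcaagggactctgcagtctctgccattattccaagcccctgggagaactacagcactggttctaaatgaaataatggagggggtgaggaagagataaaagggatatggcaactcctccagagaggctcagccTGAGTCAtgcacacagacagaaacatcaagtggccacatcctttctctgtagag
F3: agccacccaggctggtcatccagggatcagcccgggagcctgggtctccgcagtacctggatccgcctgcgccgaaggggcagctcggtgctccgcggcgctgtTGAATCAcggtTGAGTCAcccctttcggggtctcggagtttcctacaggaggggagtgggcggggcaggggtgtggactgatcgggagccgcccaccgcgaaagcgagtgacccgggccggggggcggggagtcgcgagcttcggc

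The motif begins 204 bases before the start of F2r, 233 and 54 bases before that of F2rl2, and 146 and 135 bases before that of F3. Plaur holds 1 match, TGACTCA, 69 bases before its start on chromosome 7. All 4 member windows hold the motif, as do 2565 of 32851 windows of the same length, 7.81%. The NF-κB motif, searched on both strands as GGNNTTTCC, was matched in F3 alone among them, 112 bases before the start, and in 5.82% of all windows. The core of the NFAT and TonEBP motif, TGGAAA, searched on both strands, had no match in the 4 windows and was in 21.4% of all windows. These are matches of letters in a window, found after the windows had been read, and binding was not measured.

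Against the untreated wild type pool, 23 of 81 member tests in 14 groups passed an adjusted p of 0.05, with 18 higher and 5 lower than the pool. Each test compares 2 arrays with 0 in a limma fit over all genes. The p-values use a single spread per gene, pooled over the 15 groups and moderated, and not that of the group tested. For F2rl1 the standard deviation of a group ran from 0.009 (SB203580 with NaCl 45 min) to 0.902 (untreated p38α-/- MEFs). Both groups had the same standard error of 0.261. F2rl1 and F3 gave most of the calls. After anisomycin 1 of 5 measured members was called against 12% of all genes, and after TNFα 2 of 6 against 11.0%. After NaCl it was 1 of 4 at 45 min against 9.88%, and 3 of 6 at 2 h against 9.92%. With SB203580 alone 1 of 6 was called against 26.6%, with SB203580 and anisomycin 0 of 5 against 11.7%, and with SB203580 and TNFα 1 of 5 against 9.52%. With SB203580 before NaCl the counts were 1 of 6 at 45 min against 16.8%, 4 of 6 at 2 h against 17.1%, and 3 of 7 at 8 h against 21.2%. In p38α-/- MEFs 1 of 6 was called untreated against 15%, 1 of 6 after anisomycin against 12.4%, 1 of 6 after TNFα against 7.61%, and 3 of 7 after NaCl 2 h against 18.0%. The member counts rest on so few genes that no group's share is read as differing from its background. The median log2 ratio of the measured members lay between −0.00 and 0.64 over these groups, beside 0.00 to 0.02 for all genes tested. All these comparisons share the one pool.

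F2rl1, the PAR2 gene, had the widest range of the members. After 8 h of NaCl the wild type arrays read 3.52 and 3.30, a mean of 3.41 or 10.6-fold, rank 4 of 16378 measured genes from the top. Both arrays of SB203580 with NaCl 8 h followed at 2.39 and 2.5. Neither pair overlapped with any other group.

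TNFα arrays read 1.71 and 1.76 for F2rl1, and arrays of SB203580 with TNFα 1.42 and 1.37. NaCl 2 h gave 1.44 and 1.09, and 0.94 and 1.63 with SB203580. These last 3 groups overlapped. F2rl1 was called higher than the pool after TNFα (mean 1.73 ± 0.26 SE, adjusted p = 4.71e-04), with SB203580 and TNFα (1.40, adjusted p = 0.00369), after NaCl 2 h (1.27, adjusted p = 0.0049), and with SB203580 and NaCl 2 h (1.28, adjusted p = 0.00317).

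The remaining wild type groups lay lower, and neighbours in the order overlapped. Arrays of SB203580 alone read 0.83 and 0.71, NaCl 45 min 0.85 and 0.69, and SB203580 with NaCl 45 min 0.81 and 0.80. Anisomycin arrays read 0.84 and 0.51, and with SB203580 0.43 and 0.74. Of these groups, SB203580 alone (0.77, adjusted p = 0.0362) and SB203580 with NaCl 45 min (0.81, adjusted p = 0.0421) were called. Every one of the 22 wild type arrays was above 0, with a lowest value of 0.43, including the arrays that received no stress.

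With the replicate number as a block, F2rl1 was also called after anisomycin (0.68, adjusted p = 0.0231), NaCl 45 min (0.77, adjusted p = 0.013) and SB203580 with anisomycin (0.59, adjusted p = 0.0459). Without the block these had adjusted p of 0.0959, 0.0701 and 0.152. These are levels above the pool, and SB203580 alone, without stress, had a mean of 0.77.

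In p38α-/- MEFs F2rl1 was below the pool on all 8 arrays, the reverse of the wild type. Untreated arrays read −1.04 and −2.32, anisomycin −0.91 and −1.64, TNFα −1.39 and −1.15, and NaCl 2 h −0.55 and −1.83. The 4 groups overlapped one another and none overlapped with a wild type group. All 4 were called lower than the pool, untreated cells at −1.68 (adjusted p = 0.000479), anisomycin at −1.28 (adjusted p = 0.00395), TNFα at −1.27 (adjusted p = 0.00576) and NaCl 2 h at −1.19 (adjusted p = 0.00435). All 4 calls were lost when p38α-/- arrays alone were fitted (adjusted p = 0.0649 to 0.179). On 3 of these 8 arrays, the second ones of untreated, anisomycin and NaCl 2 h cells, the F2rl1 spot was not well above background in Cy5.

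**Figure D1:**
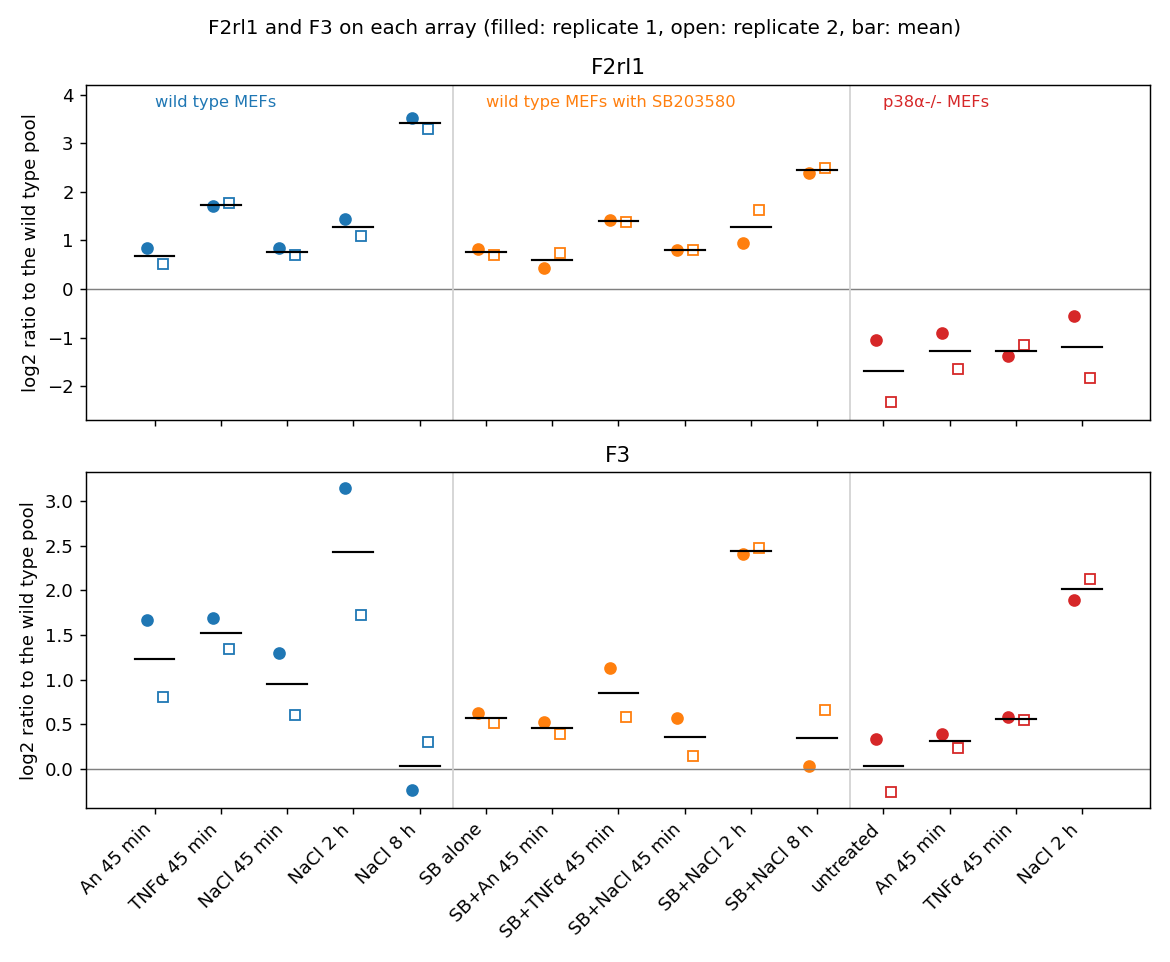
Log2 ratio to the untreated wild type pool of F2rl1 and F3 on each of the 30 arrays, by group. Filled points are the first arrays, open points the second, and bars are group means, with An for anisomycin and SB for SB203580. F2rl1 is above 0 on all 22 wild type arrays and below 0 on all 8 p38α-/- arrays, while F3 is highest in the groups with NaCl for 2 h.

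Under the same stress F2rl1 was lower in p38α-/- than in wild type MEFs. The log2 difference was −1.96 ± 0.37 (SE) after anisomycin (3.88-fold, adjusted p = 0.012), −3.0 after TNFα (8.02-fold, adjusted p = 0.000382) and −2.46 after NaCl 2 h (5.49-fold, adjusted p = 0.00228). It was the only member called in any of these comparisons, 1 of 5, 1 of 5 and 1 of 6 members measured. Among all genes the called share was 1.27%, 0.414% and 0.697%. The day of scanning moved with genotype. Within the one scan day that held both genotypes, with 1 array each, the differences were −1.43, −3.15 and −1.65. The anisomycin call was lost without the first wild type or the second p38α-/- array, and the NaCl 2 h call without the second p38α-/- array (adjusted p = 0.0746).

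Within p38α-/- MEFs, no stress gave a called change of F2rl1 over untreated cells. By array number the differences were 0.13 and 0.67 with anisomycin, −0.35 and 1.17 with TNFα, and 0.49 and 0.49 with NaCl 2 h. All the second differences use the untreated array whose F2rl1 spot was not well above background, so their size is not firm. Whether the difference between genotypes changed with the stress was tested against the untreated difference, where the pool stands for untreated wild type cells. This was −0.28 for anisomycin (adjusted p = 0.813), −1.32 for TNFα (adjusted p = 0.194) and −0.78 for NaCl 2 h (adjusted p = 0.454). No member was called in these limma tests, at 0 of 5, 0 of 5 and 0 of 6, and 4 of the 16 had an unadjusted p under 0.05. Among all genes 0.542%, 0.450% and 0% were called.

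SB203580 gave no called change of F2rl1 under any stress. The treated minus untreated difference was −0.09 with anisomycin, −0.34 with TNFα, 0.04 with NaCl 45 min and 0.02 with NaCl 2 h, each ± 0.37 (SE) with adjusted p = 1. After NaCl 8 h the difference was −0.97, given without a test because the wild type 8 h arrays chose the gene. No member was called in these limma comparisons, 0 of 19 tests, and none had an unadjusted p under 0.05. The fit called 0.0204% of all genes with anisomycin and 0% with TNFα, NaCl 45 min or NaCl 2 h. With 2 arrays a group, differences well above the standard error could also go uncalled. For F3 with anisomycin the difference was −0.78 ± 0.38 (SE) and was not called. The lack of calls therefore does not exclude differences of that size.

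Against SB203580 alone, arrays that also had NaCl for 8 h were higher in F2rl1 by 1.67 ± 0.37 (SE), with adjusted p = 0.00786. Those arrays are not among the ones that chose the gene. They do share its 8 h of NaCl, the wild type cells, the pool and the scan days with them. The test is therefore not independent of the choice of F2rl1. The call was lost without the first SB203580 array or either 8 h array. This was 1 of 6 members, against 7.78% of all genes. For the other stresses, F2rl1 with SB203580 was not called over SB203580 alone. The differences were −0.18 for anisomycin, 0.62 for TNFα, 0.03 for NaCl 45 min and 0.51 for NaCl 2 h, each ± 0.37 (SE). The F2rl1 calls of these groups against the pool are therefore levels above the pool, not called rises over SB203580 alone.

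**Figure D2:**
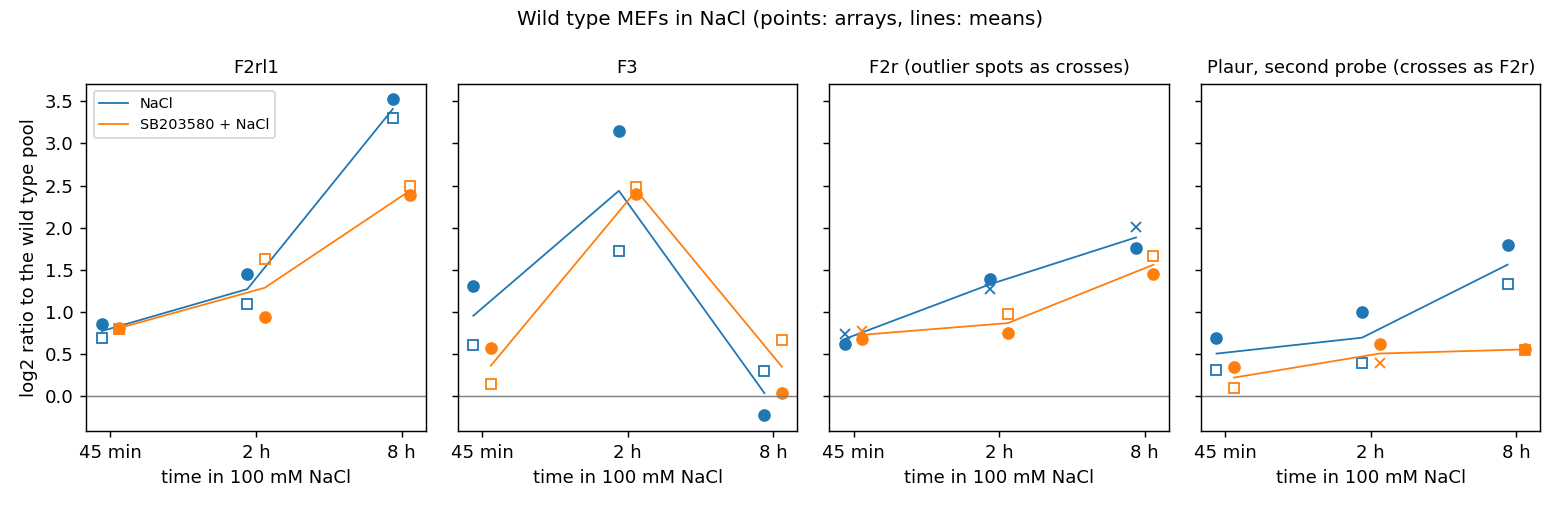
Log2 ratio to the untreated wild type pool of F2rl1, F3, F2r and the second Plaur probe at 3 times in NaCl, evenly spaced on the axis, in wild type MEFs without (blue) and with SB203580 (orange). Filled circles are the first arrays, open squares the second, crosses spots marked as outliers, and lines join means over all points shown. F2rl1 is highest at 8 h, at 3.41 and 2.44 with SB203580, and F3 is highest at 2 h, at 2.44 in both.

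The values of F2rl1 depended on how the spots were corrected. With normexp background correction and loess in place of the deposited ratios, the 8 h mean was 2.41 and the TNFα mean 1.05, and the p38α-/- groups read −0.29 to −0.49. The genotype differences became −0.69, −1.51 and −0.99. No F2rl1 call was lost by this change. Calls of F2rl1 against the pool rested on single arrays in several groups: after NaCl 2 h (the first array), SB203580 with NaCl 2 h (the second), SB203580 alone or with TNFα (either), and SB203580 with NaCl 45 min (any of 8 arrays of the series). In p38α-/- MEFs this held for anisomycin and NaCl 2 h (the second array) and TNFα (either).

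F2r, the thrombin receptor PAR1, lay above the pool wherever it was measured. Its spot was marked as an outlier on 11 of 30 arrays, 9 of them second wild type arrays, so 5 groups had both arrays for a test. SB203580 with NaCl 8 h read 1.45 and 1.67, with NaCl 2 h 0.75 and 0.98, and p38α-/- MEFs with NaCl 2 h 1.01 and 0.46. The 8 h arrays were above both of the other pairs, which overlapped. These 3 groups were called, at means of 1.56 (adjusted p = 0.000171), 0.86 (adjusted p = 0.00555) and 0.73 (adjusted p = 0.00974). The second of these was lost without its second array, and the third without its first and with p38α-/- arrays alone in the fit (adjusted p = 0.0518).

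In p38α-/- MEFs F2r read 0.48 and 0.27 after anisomycin and 0.43 and 0.40 after TNFα, and neither was called. The single measured array of untreated p38α-/- MEFs read 0.75. Their NaCl 2 h call is therefore a level above the pool and not a rise over untreated cells. That difference was −0.02 and could not be tested. Single wild type arrays read 0.47 after anisomycin, 0.67 after TNFα, 0.61 after NaCl 45 min, 1.39 after NaCl 2 h and 1.76 after NaCl 8 h. The order of these values rises with time in NaCl. With the outlier spots kept, F2r was above 0 on all 30 arrays (0.14 to 2.01) and called in all 14 tested groups, with NaCl means of 0.68 at 45 min, 1.33 at 2 h and 1.88 at 8 h, the last of them untested. On that setting NaCl 8 h with SB203580 exceeded SB203580 alone by 1.17 (adjusted p = 0.000526). The genotype difference after NaCl 2 h, set against the untreated difference, was −1.13 (adjusted p = 0.0177), which could not be tested when outlier spots were left out.

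F2rl2, the PAR3 gene, ran the other way, below the pool on 27 of 30 arrays (−1.05 to 0.17). SB203580 with NaCl 2 h read −0.94 and −0.86, which was called (mean −0.90, adjusted p = 0.0114) and lost without either array. After anisomycin F2rl2 read −0.87 and −0.39, and after NaCl 2 h −1.05 and 0.16, so that arrays of a group lay far apart. With the replicate block, anisomycin (−0.63, adjusted p = 0.0147), TNFα (−0.53, adjusted p = 0.0386), NaCl 45 min (−0.55, adjusted p = 0.0304), SB203580 alone (−0.58, adjusted p = 0.0141) and SB203580 with TNFα (−0.55, adjusted p = 0.0351) were also called. On 4 arrays the F2rl2 spot was not well above background in Cy5. After NaCl 8 h the arrays read −0.66 and −0.26, while F2rl1 and F2r of the same arrays lay above the pool.

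F3, tissue factor, was highest after 2 h of NaCl, in every type of cell that received it. Wild type arrays read 3.15 and 1.72, arrays with SB203580 2.4 and 2.48, and p38α-/- arrays 1.90 and 2.13. The wild type range covered the arrays of both other groups, and these 3 groups lay above every array of the rest. Their means were 2.44 (5.42-fold, adjusted p = 2.08e-05), 2.44 (adjusted p = 1.70e-05) and 2.01 (adjusted p = 7.42e-05), and no single array decided any of these calls. By single probe, the first F3 probe read 3.26 and 1.55 in wild type MEFs, where the lower array lay below a TNFα array (1.65), and the second read 3.05 and 1.89.

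At 45 min of NaCl F3 read 1.30 and 0.60 in wild type MEFs, and at 8 h −0.24 and 0.30. The 2 h arrays were above both other times without overlap. The 45 min mean was 0.95 (adjusted p = 0.0323). The rise from 45 min to 2 h, 1.49, was not called (adjusted p = 0.203, unadjusted p = 0.00105 in limma). It was the one member test of 4 with an unadjusted p under 0.05, none was called, and 0.0540% of all genes were. From 2 h to 8 h F3 differed by −2.41, without a test. With SB203580 the 8 h arrays read 0.03 and 0.66, so F3 was below its 2 h arrays in both groups while F2rl1 was at its highest.

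Compared within a genotype or treatment, F3 rose with 2 h of NaCl in p38α-/- MEFs over their untreated arrays (0.34 and −0.27) by 1.98 ± 0.38 (SE), with adjusted p = 0.0128. It was 1 of 6 members called there, against 1.08% of all genes, while 0 of 5 was called for anisomycin (0.0847% of all genes) and 0 of 5 for TNFα (0.0780%). It also rose over SB203580 alone (0.62 and 0.52), by 1.87 ± 0.38 (SE) with adjusted p = 0.00886, as 1 of 5 members against 2.87% of all genes. For anisomycin, TNFα and NaCl 45 min over SB203580 alone no member was called, with all-gene shares of 0.0140% for anisomycin, 0.0983% for TNFα and 0.0435% for NaCl 45 min. The call in p38α-/- MEFs was lost without the second untreated or the second NaCl array and with p38α-/- arrays alone in the fit (adjusted p = 0.0586). The first, brighter probe had an outlier spot on an untreated array and could not be tested alone. The call over SB203580 was lost without the first SB203580 array or either NaCl array.

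**Figure D3:**
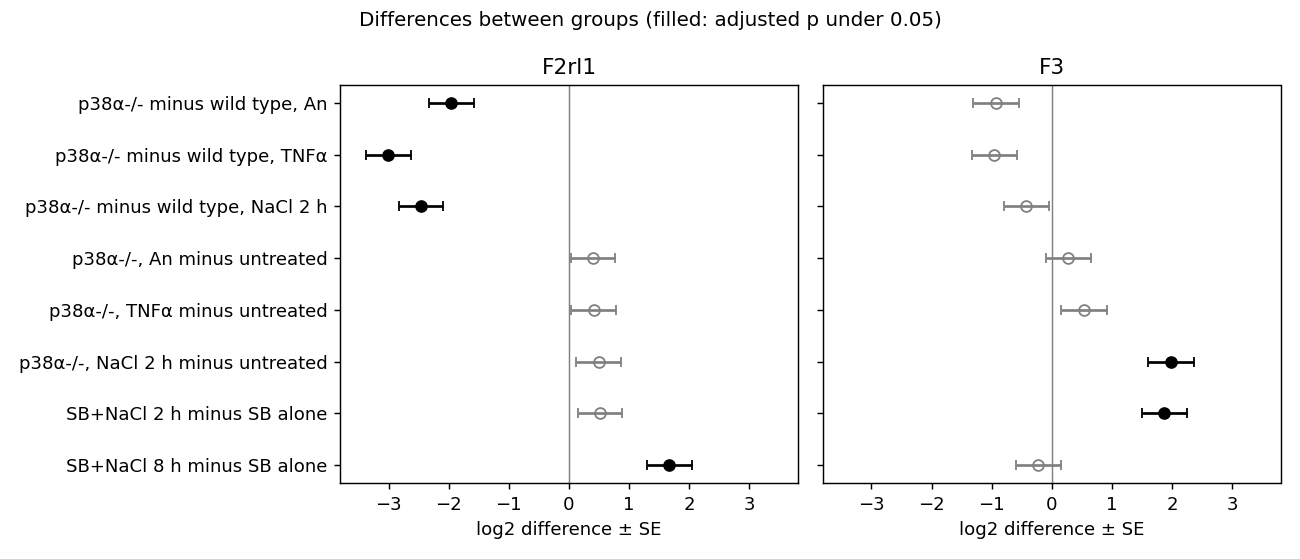
Differences in log2 ratio between groups for F2rl1 and F3, with standard errors of the limma fit. Filled points passed an adjusted p of 0.05, An is anisomycin and SB is SB203580. The F2rl1 differences between genotypes lie at −1.96, −3.0 and −2.46, and the F3 differences for NaCl 2 h lie at 1.98 in p38α-/- MEFs and 1.87 with SB203580.

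F3 also rose over the pool after the shorter stresses. Anisomycin arrays read 1.67 and 0.80 (mean 1.24, adjusted p = 0.00669) and TNFα arrays 1.70 and 1.34 (mean 1.52, adjusted p = 0.00175). With SB203580 the same stresses read 0.53 and 0.39, and 1.13 and 0.57, and in p38α-/- MEFs 0.39 and 0.23, and 0.58 and 0.54. Both pairs lay below the pairs of wild type MEFs without inhibitor, with no overlap. The tests of those differences were not called. For SB203580 they were −0.78 with anisomycin, −0.67 with TNFα and −0.60 with NaCl 45 min (adjusted p = 1 each), and 0.00 with NaCl 2 h. Between genotypes they were −0.93 (adjusted p = 0.32), −0.96 (adjusted p = 0.51) and, after NaCl 2 h, −0.42 (adjusted p = 0.72).

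With the replicate block, F3 was also called over the pool with SB203580 and TNFα (0.85, adjusted p = 0.0296, against 0.0542 without). The calls after anisomycin and TNFα were lost without the first array, and the NaCl 45 min call without either and with wild type arrays alone in the fit (adjusted p = 0.0536).

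Plau, urokinase, was the steadiest member. With its probes averaged, group means lay between −0.04 and 0.16, single arrays between −0.15 and 0.28, and no comparison called it. Single probes ran wider, from −0.235 to 0.529. Both of these values came from the first wild type array of NaCl 45 min, where the probes disagreed. After 8 h of NaCl the averaged Plau values were 0.16 and −0.01.

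Plat, tissue-type plasminogen activator, was called in one group when its probes were averaged. SB203580 with NaCl 8 h read 0.82 and 0.90 (mean 0.86 ± 0.15 SE, adjusted p = 0.000536), above every other array of Plat. NaCl 8 h without inhibitor read 0.27 and 0.66, and SB203580 with NaCl 2 h 0.42 and 0.40. The 3 Plat probes differed. In the called group the first read 0.97 and 1.12, the third 1.12 and 1.5, and the second 0.37 and 0.08. On its own the second probe was called after anisomycin (0.51, adjusted p = 0.0358) and the first in p38α-/- MEFs after NaCl 2 h (0.51, adjusted p = 0.0269). With the replicate block Plat was also called for SB203580 with NaCl 2 h (0.41, adjusted p = 0.0209) and for SB203580 with NaCl 8 h over SB203580 alone (0.63, adjusted p = 0.0231).

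Plaur, the urokinase receptor, was measured by probes that disagreed. The second probe read 1.79 and 1.33 after NaCl 8 h, 0.99 and 0.39 after NaCl 2 h, and 0.89 and 0.55 after TNFα in wild type MEFs. With SB203580 the 8 h arrays read 0.56 and 0.54, below both arrays without it. The first probe was marked as an outlier on 22 of 30 arrays and read 0.18 and 0.08 on the single NaCl 8 h and 2 h arrays where it was measured. Averaged over probes, Plaur was called after NaCl 2 h (0.61, adjusted p = 0.0364), and this call was lost with outlier spots kept (0.27), with wild type arrays alone and without the first array. In that mean the first array holds the second probe alone (0.99), and the second array averages both probes (0.08 and 0.39). Group means of Plaur thus depend on which probe was measured on each array. On its own the second probe was called after TNFα (0.72, adjusted p = 0.0326) and NaCl 2 h (0.69, adjusted p = 0.041).

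**Figure D4:**
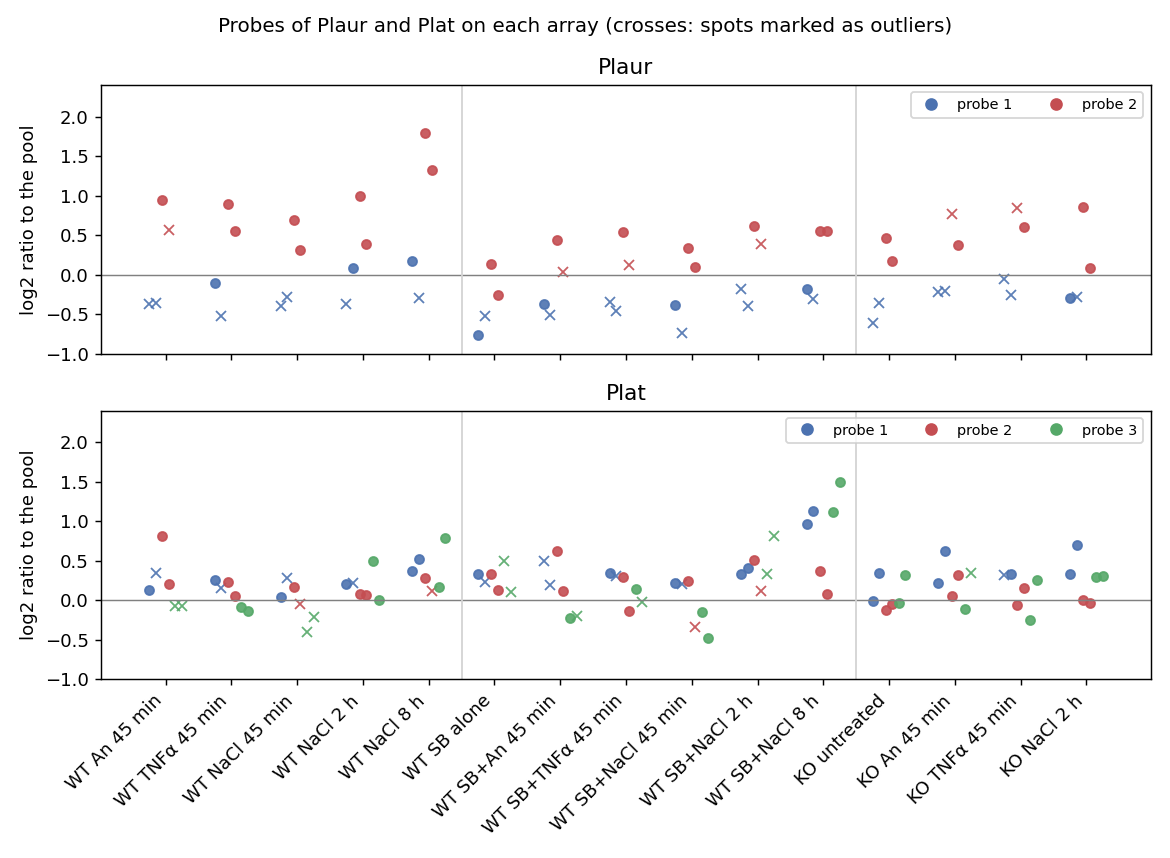
Log2 ratio to the untreated wild type pool of each Plaur and Plat probe on each array, by group (WT wild type, KO p38α-/-, An anisomycin, SB SB203580). Crosses are spots marked as outliers. The second Plaur probe reaches 1.79 and 1.33 after NaCl 8 h while the first stays near or below 0, and the second Plat probe stays below the other probes after NaCl 8 h with SB203580.

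At a ratio of 2.5-fold, F2rl1 was the member above that size after 8 h of NaCl in wild type MEFs, where 1.18% of all measured genes were above it. F2r on its single array (1.76) was also past it but had no second array.

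Other genes of these pathways were taken from a list of 75, of which 71 are on the arrays. The list was set together with the members, with earlier results known. Against the pool, 102 of 712 tests in 14 groups were called, with 53 higher and 49 lower, and the list's median lay between −0.12 and 0.01. In the same 14 groups 7.61% to 26.6% of all genes were called and the median of all genes was 0.00 to 0.02, while 7.69% to 22.2% of the listed genes were called. Proteases and zymogens were called higher in 3 and lower in 17 of 206 tests, inhibitors higher in 19 and lower in 16 of 156, receptors and cofactors higher in 18 and lower in 8 of 139. G proteins, arrestins and kinases were called higher in 12 and lower in 7 of 150, and substrates higher in 1 and lower in 1 of 61. After 8 h of NaCl none of the 49 measured in wild type MEFs was past 2.5-fold in either direction.

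Some listed genes differed from the pool or between groups. Tfpi, the inhibitor of tissue factor, was lower than the pool in p38α-/- MEFs, at −0.75 and −1.21 untreated (mean −0.98, adjusted p = 0.000479). Wild type means of Tfpi were −0.43 after anisomycin, −0.30 after TNFα and −0.09 after NaCl 2 h. Between genotypes under these stresses, 0 of 12, 0 of 10 and 0 of 12 measured inhibitors were called. Procr, the receptor of protein C, was lower in p38α-/- than in wild type MEFs after anisomycin (−0.87, adjusted p = 0.0177) and NaCl 2 h (−0.89, adjusted p = 0.0241). Egfr, a growth factor receptor, was higher with SB203580 and NaCl 8 h than with SB203580 alone (0.88, adjusted p = 0.000618). Gnaq, a G protein subunit used by these receptors, was lower in the same comparison (−1.14, adjusted p = 0.000101). Against the pool, SB203580 with NaCl 8 h read 0.46 for Egfr and −0.60 for Gnaq. SB203580 alone read −0.42 for Egfr and 0.53 for Gnaq. After anisomycin Egfr was higher in p38α-/- than in wild type MEFs (0.77, adjusted p = 0.00761). F11, coagulation factor XI, was lower than the pool after NaCl 2 h, at −0.85 and −0.83 (adjusted p = 0.00483). This was not particular to NaCl, as F11 read −0.488 and −0.725 after TNFα, though 0.169 and −0.142 after anisomycin.

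Genes whose pattern over the 15 group means was among the most like that of F2rl1, among 3567 genes with a mean in all groups, a probe well above background on at least 15 arrays and group means spanning at least 1, were Cd24a (Pearson r = 0.963), Prkcd (0.954), Folr1 (0.953) and Ros1 (0.946). For F3 they were Cpeb2 (0.883), Ubb (0.853), Tgif (0.848), Ret (0.842) and C1qtnf1 (0.840). These correlations describe group means that share the same pool and arrays.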

How the data were processed

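RNA of 30 samples was compared with one pool of untreated wild type MEFs on two-colour arrays. Per the file headers, the authors scanned and extracted spots with Agilent Feature Extraction 8.1.1.1 (the labels name 9.1), which detrended the signals, normalised the dyes by linear and LOWESS steps, and deposited processed signal intensities and LogRatio, the log10 ratio of Cy5 over Cy3. Deposited columns of p-values and errors of single spots were not used. The series' table of values, used as an alternative, matched the arrays' own ratios on the log2 scale in direction and size, and its array medians lay between −0.06 and 0.03. How it was centred is not given in the sources used here.

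The log10 ratios were converted to log2, while the authors' table was deposited as log2. Control spots and spots marked as outliers were removed, and probes of one gene were averaged, leaving 41174 probes and 21689 named genes. All 15 groups were fitted together with limma 3.58.1 in R 4.3.3, with moderated tests and Benjamini-Hochberg adjustment over all genes measured on every array of a comparison. Means and differences are on the log2 ratio scale, and values written as fold are their linear equivalents. The threshold was an adjusted p of 0.05. Scripts were tested on simulated data. Precision is limited by having 2 arrays a group. The arrays of a group come from independent experiments according to the methods.

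Replicate numbers were checked for pairing: deviations from group means correlated above 0.1 for 55 of 55 pairs of wild type groups (median 0.458), 6 of 6 of p38α-/- groups (median 0.246) and 6 of 44 across genotypes. The numbers thus pair arrays within a genotype, from the data, and values with the number as a block are given beside a result where the block changed a call. Wild type replicates with the same number share a scan day, and 4 p38α-/- arrays share the day of the second wild type arrays.

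The members and gene lists were chosen with earlier results of these data known. Named genes are the members, up to 4 listed pathway genes per comparison by size of called change, and the 5 genes most like F2rl1 and F3, some of which are not reported here. Alternatives were the series' value table, normexp with offset 50 and loess, outlier spots kept, a filter on dim spots, single probes, fits within a genotype, the replicate block and leaving out each array. Sequences are from RefSeq, GRCm38.p6.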

Additional observations from a re-analysis of the deposited data

How the results depend on the processing

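Of 29 called results of single members, 214 of 223 values under alternatives kept their direction and side of the threshold, 9 lost the call and 0 reversed. The untested F2rl1 mean after NaCl 8 h ranged from 2.41 with normexp and loess to 3.53. Leaving out each array gave 870 values, of which 38 lost the call and 0 reversed. Calls of members against the pool numbered 23. They were 45 with the series' value table, 39 with outlier spots kept, 33 with the replicate block, and 20 to 30 without single arrays. More spots are measured with the value table and with outlier spots kept, so the number of tests differs. Shares of all genes called under these settings are not given. These counts and those of the pathway list below are therefore not read against a background. Calls for SB203580 with stress minus stress alone were 0 without any array, those between genotypes 2 to 3, those for NaCl 2 h minus 45 min 0 to 1. The one call of stressed against untreated p38α-/- MEFs fell to 0 with the brightest probe of each gene, which for F3 had an outlier spot on an untreated array, and with p38α-/- arrays alone, and was 0 to 1 without single arrays. The 2 calls of stress over SB203580 alone were 4 with the value table, 4 with outlier spots kept, 1 with the brightest probe, 3 with the block and 0 to 2 without single arrays. The pathway list had 102 calls, 273 with the value table, 268 with outlier spots kept, 159 by single probe and 91 to 113 without single arrays. The 1 member past 2.5-fold after NaCl 8 h became 2 with the value table, outlier spots kept, single probes or a log2 threshold of 1, and 2 without either array. Fitted on p38α-/- arrays alone, all 4 F2rl1 calls against the pool, the F2r call after NaCl 2 h and the F3 rise over untreated cells were lost. Fitted on wild type arrays alone, the F3 call at NaCl 45 min and the Plaur call at NaCl 2 h were lost. The cause of these changes was not tested. The dim spots of F2rl1 and F2rl2 in Cy5 limit how low their ratios could be measured.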
